A study of Capra hircus with 2 samples.

Results

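The miRNAs described here are those of the miR-199 and miR-214 group in the goat mammary gland. They were taken as all entries of the study's list of conserved goat miRNAs whose name begins with miR-199 or miR-214, which gave 5 of 346 listed miRNAs: miR-199a-3p, miR-199a-5p, miR-199b, miR-199c and miR-214. Small RNA was sequenced from mammary gland tissue of Xinong Saanen dairy goats at the dry period and at peak lactation. Each stage was 1 library, made from RNA pooled from 3 goats, so there were no replicates and the spread between goats was not measured. The methods of the study give an age of 2.5 years and a sampling time of 320 days after lambing for the dry period goats and of 75 days for the goats at peak lactation, whereas the sample labels swap these days. The stage was taken from the state named in the labels, and the clean read total of each library is the one the study lists for the stage of that name.

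A miRNA gene is transcribed into a longer RNA that folds into a hairpin. The enzymes Drosha and Dicer cut the hairpin into a short duplex, and either strand, called the 5p or the 3p arm, can be kept as the mature miRNA. Bases 2 to 8 of the mature miRNA, the seed, pair with target mRNAs, so a shift of the 5′ end changes the seed. In mammals a miR-199a hairpin and the miR-214 hairpin are cut from 1 transcript antisense to a dynamin gene. Both miRNAs are known from fibroblasts, smooth muscle and other mesenchymal cells. In the goat gene table of RefSeq (assembly ARS1.2), MIR199A and MIR214 both lie inside DNM3, with no other miRNA gene there, and MIR199B lies inside DNM1.

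The 5 listed sequences are shown because they decide which reads can be told apart. They are written 5′ to 3′ with the seed in capitals.
miR-199a-3p: aCAGUAGUcugcacauugguu
miR-199c: aCAGUAGUcugcacauugg
miR-199a-5p: cCCAGUGUucagacuaccuguu
miR-199b: cCCAGUGUuuagacuaucu
miR-214: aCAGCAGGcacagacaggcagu
The seed CAGUAGU was listed for miR-199a-3p and miR-199c, CCAGUGU for miR-199a-5p and miR-199b, and CAGCAGG for miR-214 alone. The sequence of miR-199c is the first 19 nt of miR-199a-3p. Within their shared 19 nt, miR-199a-5p and miR-199b differ by C10U and C17U, counted from the 5′ end with the base of miR-199a-5p first. The listed miR-199b is therefore a 5p arm. In mammals the 3p arms of the miR-199a and miR-199b hairpins are the same, so reads of miR-199a-3p may come from any of these hairpins.

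The hairpin of miR-199a is shown because its 2 arms were compared. It is the goat precursor sequenced in the study, 104 nt long, with the listed 5p arm (nt 31 to 52) and 3p arm (nt 70 to 90) in capitals and 17 nt between them.
miR-199a hairpin: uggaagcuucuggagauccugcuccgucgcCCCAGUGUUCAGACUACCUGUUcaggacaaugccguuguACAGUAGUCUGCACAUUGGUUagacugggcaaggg
The hairpins of miR-199b and miR-214, and the 5p arm of miR-214, were not analysed here.

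Clean reads numbered 14851375 at the dry stage and 15712891 at peak lactation. Reads of conserved miRNAs made up 61.1% of the first and 14.4% of the second, a log2 difference of -2.08. These shares were counted here from the deposited tags. The study's own list counts far more let-7a and let-7f reads at peak lactation than these tags hold, so the size of this difference, and every value set against conserved miRNA reads, is uncertain. Values are reads per 1000000 clean reads (RPM) unless stated. The detection floor was set at 3 reads, equal to 0.202 RPM and 0.191 RPM in the same order. Intervals and tests cover the counting of reads alone, and a test compares these 2 libraries, not the stages. Levels of different miRNAs in 1 library may also carry the unequal ligation of their ends to the adaptors.

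All 5 miRNAs of the group had fewer reads at peak lactation than in the dry period, in RPM. miR-199a-3p made up nearly all of the group in both libraries. Counted once per read, the group held 151545 reads (10204 RPM) for the dry period and 20900 reads (1330 RPM) for peak lactation. Of these reads, 97.6% and 96.5% were miR-199a-3p. The log2 ratio of the group was -2.94 (95% interval -2.96 to -2.92). As a share of conserved miRNA reads the group went from 1.67% to 0.922%, with the same uncertainty of the total. In tissue RNA, fewer cells that make a miRNA and less of it per cell cannot be told apart.

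miR-199a-3p had 147964 reads (9963 RPM) in the dry period and 20177 reads (1284 RPM) at peak lactation, a log2 ratio of -2.96 (-2.98 to -2.93). It was the miRNA of rank 7 among the 346 in the dry period library and of rank 19 at peak lactation. The other members were far less abundant than this arm in both libraries. miR-199b, whose seed is that of miR-199a-5p, had 1600 reads (108 RPM) and 299 reads (19.03 RPM), a log2 ratio of -2.50 (-2.68 to -2.32). miR-199a-5p, the opposite strand of the miR-199a duplex, had 1417 reads (95.4 RPM) and 315 reads (20.05 RPM), with a log2 ratio of -2.25 (-2.43 to -2.07). The rank of miR-199b went from 87 to 115 and that of miR-199a-5p from 93 to 114. miR-214, the cluster mate of miR-199a, had 564 reads (38.0 RPM) and 109 reads (6.94 RPM), a log2 ratio of -2.45 (-2.75 to -2.16). All 1042 reads and 184 reads counted for miR-199c also fitted miR-199a-3p equally well, and 0 were its own. This 0 was fixed by the sequences, since miR-199c is the start of miR-199a-3p and no read could fit it better. Its log2 ratio of -2.58 (-2.81 to -2.36) therefore describes reads that cannot be told apart from short or altered forms of miR-199a-3p. With miR-199c set aside, the intervals of miR-199a-5p, miR-199b and miR-214 overlapped one another, and that of miR-199a-3p lay below all 3.

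**Figure D1:**
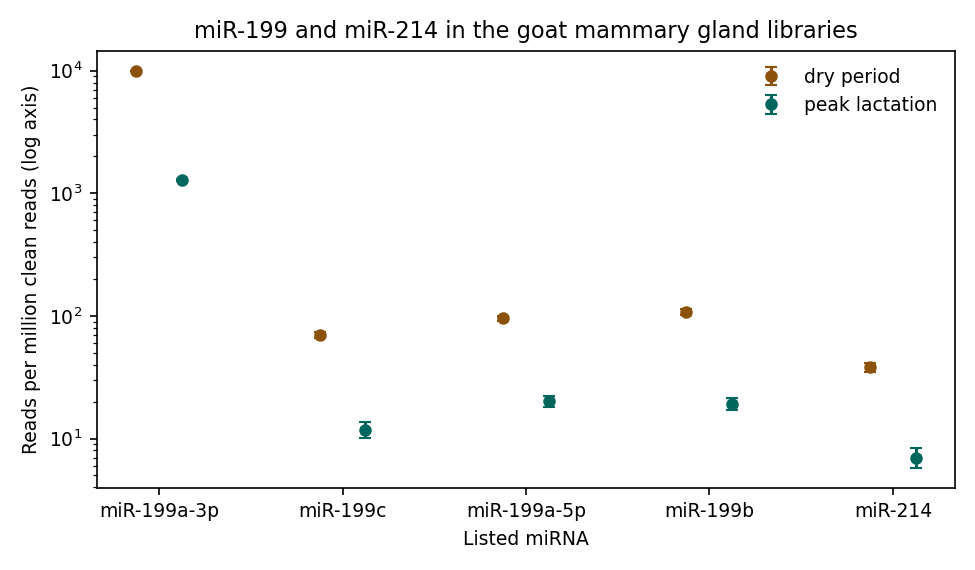
RPM (log axis) of each listed miRNA in the dry period library and the peak lactation library. Points are the single library of each stage and bars the Wilson 95% counting interval. Each of the 5 miRNAs was lower at peak lactation, and miR-199a-3p stood at 9963 and 1284 RPM, well above the rest.

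A miRNA was called changed where the log2 ratio was beyond 1 in size and the Audic-Claverie p of the 2 read counts was below 0.01. All 5 members were called lower at peak lactation, but so were 67.7% of the 257 miRNAs tested. The 5 are not separate counts, because every read of miR-199c was also counted for miR-199a-3p. The median log2 ratio was -2.50 over the members and -1.44 over all tested, of which 247 had a ratio below 0 and 3 were called higher. In the order from the most lowered of the 257, miR-199a-3p had rank 22, miR-199c 42, miR-199b 43, miR-214 46 and miR-199a-5p 54.

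Scaling to the conserved miRNA reads counted here, and not to all clean reads, ended the call of every member, and this turned on the let-7 family. On that scale 0 of 5 members were called lower, against 5.84% of all tested. The log2 ratio was then -0.87 (-0.89 to -0.85) for miR-199a-3p, -0.50 for miR-199c, -0.42 for miR-199b, -0.37 for miR-214 and -0.17 (-0.34 to 0.0093) for miR-199a-5p. The interval of miR-199a-5p alone reached 0. The let-7 family took 46.5% of clean reads at the dry stage and 7.77% at peak lactation, and without it the share of conserved miRNA reads differed by -1.13 on the log2 scale. Scaled to conserved miRNA reads without let-7, a setting chosen after seeing the data, all 5 members were called lower, from -1.82 for miR-199a-3p to -1.12 for miR-199a-5p, against 23.0% of all tested. With TMM factors the ratio of miR-199a-3p was -1.66 and with DESeq2 size factors -1.56, and miR-199a-5p was no longer called with either (-0.95 and -0.85). All of the log2 ratios stayed below 0 in each normalization run.

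The 2 arms of miR-199a did not fall by the same factor. There were 104 reads of miR-199a-3p for each read of miR-199a-5p in the dry period library and 64.1 at peak lactation. The log2 change of this ratio was -0.71 (-0.88 to -0.53), with an adjusted p of 3.1e-13 (two-sided Fisher's exact test of the 4 read counts, Benjamini-Hochberg over 5 ratios). Such a ratio within a library does not depend on the normalization. The level of the arm ratio did depend on the count rule. It was 136 and 84.6 with starts 1 nt earlier or later counted too, and 158 and 90.5 with a stretch of 20 nt. Because the 3p arm may stem from a miR-199a or a miR-199b hairpin, it was also set against miR-199a-5p and miR-199b together. That ratio went from 49.0 to 32.9, a log2 change of -0.58 (-0.70 to -0.45; adjusted p = 6.7e-17, Fisher's exact test).

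A change of this kind was common among the libraries' miRNAs. Of 31 pairs of listed arms, 18 had at least 10 reads in all 4 counts, and the ratio of 66.7% of these differed between the libraries (adjusted p below 0.05, Fisher's exact test), miR-199a among them. Over the 17 other pairs the log2 change had a median of 0.13 with extremes of -2.05 (let-7a) and 1.54 (miR-30b). The value was below 0 in 7 of the 17, and below that of miR-199a in 3 (let-7a, miR-17 and miR-369). Only let-7a and miR-21 had a more unequal pair of arms than miR-199a in the dry period library.

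**Figure D2:**
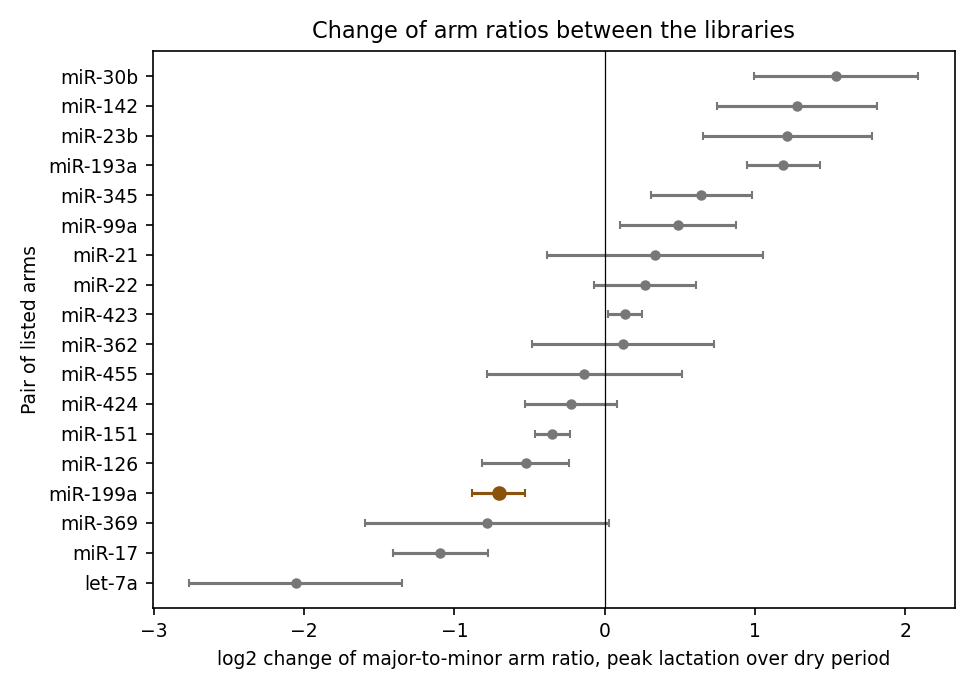
Change between the libraries in the ratio of the more abundant to the less abundant arm, for the 18 pairs of listed arms with at least 10 reads in all counts, on a log2 scale with 95% counting intervals. The pair of miR-199a (brown) stood at -0.71, with 3 pairs below it and 14 above.

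Reads that lay wholly inside the miR-199a hairpin were also counted by arm, with any start and end. They numbered 154046 in the dry period library and 21130 at peak lactation. The 3p arm had 152691 and 20829 of these reads and the 5p arm 1355 and 301, so that the ratio was 113 and 69.2. No read was counted in the loop, taken with a few bases of each arm, or outside the arms in either library. The 17 nt between the arms are shorter than the shortest reads kept, and the stretch after the 3p arm is shorter still. A read wholly within either stretch could therefore not be counted, and the 0 does not measure such products. Loop reads that reach a few bases into an arm could be counted, and their count was 0. Only the stretch before the 5p arm could hold a whole read, and there a count of 0 allows up to 3 reads. Nearly all reads of the 5p arm began at its listed first base, 99.2% in the dry period library and 99.7% at peak lactation. The last base of the 5p arm was more variable: 46.6% and 52.2% of its reads ended at nt 52, the listed end, and 35.0% and 31.2% ended 3 nt earlier.

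**Figure D3:**
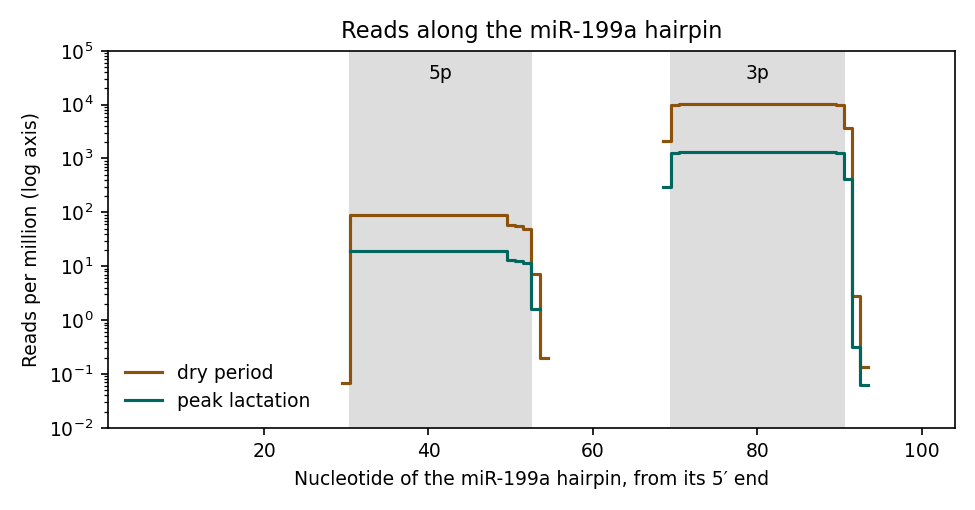
RPM (log axis) covering each nucleotide of the miR-199a hairpin, counted from its 5′ end, for tags inside the hairpin. Grey bands are the listed arms, and positions with no read are left blank. Coverage was confined to the arms and the 1 to 3 nt beside them, and the 3p arm lay above the 5p arm in both libraries.

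The ratio of the cluster mates miR-214 and miR-199a-5p differed between the libraries by less than the test could call. Whether all miR-199a-5p reads came from the gene beside miR-214 was not tested. There were 0.398 reads of miR-214 per read of miR-199a-5p in the dry period library and 0.346 at peak lactation, a log2 change of -0.20 (-0.55 to 0.14; adjusted p = 0.26, Fisher's exact test). The count rule mattered here. With tags identical to the listed sequence the change was -1.01 (-1.82 to -0.19), on 15 peak lactation reads of miR-214. With tags of at least 5 reads it was -0.55, and both were past the threshold. That cut, made in each library, kept 489 of 564 miR-214 reads in the dry period and 74 of 109 at peak lactation. Against miR-199a-3p, miR-214 rose from 0.00381 to 0.00540 reads per read, a log2 change of 0.50 (0.21 to 0.80; adjusted p = 0.0022, Fisher's exact test). With identical tags alone this last change was -0.20, below 0 and not past the threshold.

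The listed 5p arms miR-199a-5p and miR-199b were of like abundance. Reads were matched to the listed sequences, and which genes they came from was not tested. There were 1.13 reads of miR-199b per read of miR-199a-5p in the dry period library and 0.949 at peak lactation. The log2 change of -0.25 (-0.50 to 8.7e-05) did not pass the threshold (adjusted p = 0.064, Fisher's exact test). It passed with identical tags (-0.40), with 1 mismatch allowed (-0.28) and with tags of at least 5 reads (-0.28). Identical tags set the 19 nt tag of miR-199b against the 22 nt tag of miR-199a-5p, so that value may also carry changes in read length.

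Each member was read in several forms that differ at their ends. For miR-199a-3p these 3 tags were the most frequent in both libraries and are shown because they differ at the 3′ end alone.
tag ending in guu: acaguagucugcacauugguu
tag ending in uua: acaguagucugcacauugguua
tag ending in uuu: acaguagucugcacauugguuu
The tag ending in guu, which is the listed sequence, held 64421 reads (43.5%) in the dry period and 9225 reads (45.7%) at peak lactation. The tag ending in uua, 1 nt longer along the hairpin, held 48039 reads (32.5%) and 5693 reads (28.2%). The tag ending in uuu closes with a U that the hairpin does not hold, and it had 13202 reads (8.92%) and 1917 reads (9.50%).

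By length, reads of 21 nt made up 44.3% (95% interval 44.1 to 44.6) of miR-199a-3p in the dry period library and 46.9% (46.2 to 47.6) at peak lactation. This difference of 2.56 percentage points was past the counting error (p = 7.5e-12, two-sided Fisher's exact test). It was not large beside other miRNAs: over the 143 miRNAs with at least 100 reads in both libraries, the share of the most frequent length changed by a median of 0.476 points, from -12.8 to 13.7, and 67 of them changed by more than miR-199a-3p. Reads of 22 nt went from 42.4% to 39.2%, and reads of 23 nt were 9.74% and 9.72%.

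Part of the miR-199a-3p reads ended in bases that the hairpin does not hold. Such tails were on 20.8% of its reads in the dry period library and 22.3% at peak lactation. Tails of U alone were on 10.8% and 11.2%, and tails of A alone on 8.74% and 9.84%. Tails with a C or G were on 0.570% and 0.496%. The hairpin itself has an A after nt 90, so an A added to the 21 nt form cannot be told apart from the longer cut, and the share with an added A is a minimum. On miR-199a-5p tails were rarer, with 73 reads (5.15%, 4.12 to 6.43) and 15 reads (4.76%, 2.91 to 7.71).

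The 5p arms miR-199a-5p and miR-199b were read mainly in 2 forms, of 19 nt and 22 nt, in unlike proportions. They are shown because the same 3 bases set the forms apart in both miRNAs.
miR-199a-5p, 19 nt: cccaguguucagacuaccu
miR-199a-5p, 22 nt: cccaguguucagacuaccuguu
miR-199b, 19 nt: cccaguguuuagacuaucu
miR-199b, 22 nt: cccaguguuuagacuaucuguu
For miR-199b, reads of 19 nt were 46.9% in the dry period library and 47.8% at peak lactation, and reads of 22 nt 30.2% and 30.4%. For miR-199a-5p the order was the opposite, with 33.5% and 29.8% at 19 nt and 44.6% and 50.2% at 22 nt. The ratio of 19 nt to 22 nt reads was higher in miR-199b in each library, by a log2 value of 1.05 (0.81 to 1.29; adjusted p = 2.2e-17) in the dry period library and 1.40 (0.87 to 1.93; adjusted p = 4e-07) at peak lactation (Fisher's exact test, adjusted over 6 ratios). Between the libraries the change of this ratio did not pass the threshold for miR-199a-5p (-0.33, -0.74 to 0.07) or miR-199b (0.02, -0.40 to 0.43). The reads of miR-214 were spread more evenly, with 21.3%, 27.1%, 30.9% and 16.7% at 21, 22, 23 and 24 nt in the dry period library and 21.1%, 22.9%, 28.4% and 22.9% at peak lactation.

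The 3p arms and not the 5p arms of this group carried a second 5′ start, 1 nt before the listed one. The tags are shown with bases 2 to 8, the seed that this start gives, in capitals.
miR-199a-3p, earlier start: uACAGUAGucugcacauugguu
miR-214, earlier start: uACAGCAGgcacagacaggcag
The seeds ACAGUAG and ACAGCAG take the place of CAGUAGU and CAGCAGG. Of the miR-199a-3p reads with a start within 1 nt of the listed one, 38504 (20.01%) began earlier in the dry period library and 5762 (21.6%) at peak lactation. For miR-214 these were 248 reads (30.2%, 27.2 to 33.5) and 46 reads (29.5%, 22.9 to 37.1). The extra base was U in 38317 of the 38504 reads and 5727 of the 5762 reads of miR-199a-3p, which is the base of the hairpin at nt 69. In miR-214 it was U in 247 of 248 reads and 46 of 46 reads. In contrast, miR-199a-5p had 1 such read in each library and miR-199b 2 and 0.

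Relative to reads at the listed start, the earlier start of miR-199a-3p rose at peak lactation by 0.13 on the log2 scale (0.089 to 0.18; adjusted p = 2.3e-08, Fisher's exact test over 6 ratios). For miR-214 the change was -0.06 (-0.60 to 0.48; adjusted p = 1, Fisher's exact test). Most listed miRNAs showed little of such a start: over 134 listed starts with at least 100 reads in both libraries, the median share of the earlier start, among earlier and listed starts, was 0.120% in the dry period library and 0.173% at peak lactation. In the dry period library 9 of them were above 10%, and miR-214 had rank 6 and miR-199a-3p rank 8. miR-199b had rank 66 and miR-199a-5p rank 91 in that order.

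The 2 starts of miR-199a-3p also differed in where their reads ended. Among reads inside the hairpin in the dry period library, 78.5% of those with the earlier start ended at nt 90, 13.0% 1 nt later and 7.81% 1 nt earlier. Of those with the listed start, 54.9% ended at nt 90, 41.0% 1 nt later and 3.69% 1 nt earlier. The peak lactation library held the same order, with 76.9%, 11.4% and 10.5% for the earlier start and 58.8%, 36.3% and 4.36% for the listed start. The longer 3′ end thus went with the later 5′ start in both libraries.

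**Figure D4:**
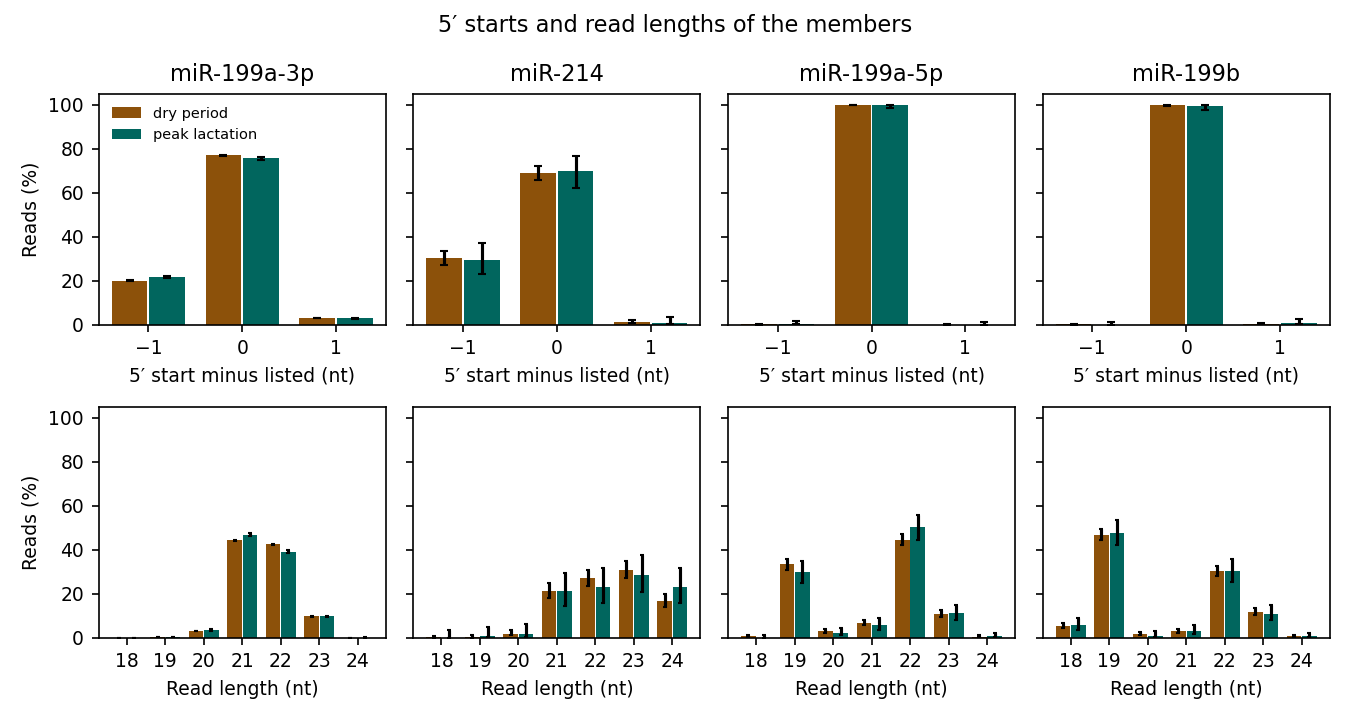
Share of reads (percent) by 5′ start relative to the listed base (upper row) and by read length (lower row) for 4 members, in the dry period library and the peak lactation library, with Wilson 95% counting intervals. The 3p arms miR-199a-3p and miR-214 have 20.01% to 30.2% of reads at the start 1 nt earlier, and the 5p arms almost none. The main length is 22 nt for miR-199a-5p and 19 nt for miR-199b.

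The naming of this group as stromal was set against lists of miRNAs known from the cell types of the gland, all chosen with earlier results of these data known. Besides the members, the libraries held smooth muscle miR-143 (8544 and 4711 RPM) and miR-145 (3301 and 488 RPM). Epithelial examples were miR-200c (498 and 364 RPM), miR-141 (66.7 and 62.8 RPM) and miR-182 (32.9 and 2.29 RPM). Of the blood cell miRNAs, miR-451 had 51.3 and 108 RPM and miR-142 had 368 and 118 RPM. These examples do not stand for their lists, whose miRNAs moved unequally. The summed reads of these lists moved less than those of the members. Summed over each list, the log2 ratio was -1.19 for 2 smooth muscle miRNAs, -1.22 for 11 other stromal miRNAs, -1.02 for 9 epithelial, -0.66 for 2 endothelial and -0.69 for 7 blood cell miRNAs. In the same order, 1 of 2, 8 of 11, 6 of 9, 0 of 2 and 3 of 7 were called lower, next to the 67.7% of all tested.

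Within the lists the spread was wide. In the smooth muscle list miR-145 had a log2 ratio of -2.76 and its cluster mate miR-143 one of -0.86. The other stromal list ran from -2.60 for miR-455* and -2.47 for miR-455 to -1.18 for miR-140 and -0.45 for miR-29c. In the epithelial list miR-183 (-4.42, from 101 reads and 5 reads), miR-96 (-4.31) and miR-182 (-3.85) fell by more than any member. In the same list miR-141 stood at -0.09. In the blood list miR-451 (1.07) and miR-144 (1.06) were called higher, while miR-142* stood at -2.92.

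As a ratio of reads, the members were lower at peak lactation relative to every list. Set against the other stromal list they went from 0.526 to 0.160 reads per read, a log2 change of -1.72 (-1.74 to -1.70), and against the smooth muscle list from 0.861 to 0.256, a change of -1.75 (-1.78 to -1.73). Against the epithelial list the change was -1.92 (-1.95 to -1.89). These are ratios of sums, in which miR-199a-3p makes up nearly all of the members and the most abundant miRNAs of a list its total. Single stromal miRNAs stood close to single members, such as miR-455 and miR-455* beside miR-214 and miR-199b. The name stromal rests on what is known of the members and not on these libraries. The part of cell composition in these values was not tested.

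**Figure D5:**
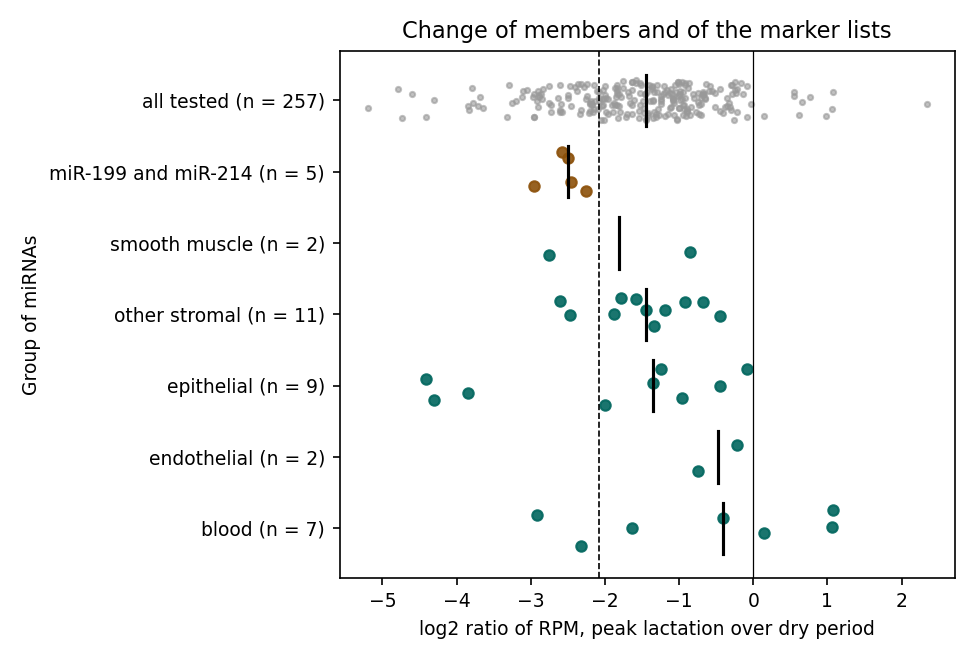
log2 ratio of RPM, peak lactation over dry period, for all 257 tested miRNAs (grey), the 5 members (brown) and the miRNAs of each list (green), 1 point per miRNA, with black bars at the medians. The solid line marks 0 and the dashed line -2.08, the difference in the share of miRNA reads. All 5 members lie left of the dashed line, but so do many others: let-7f, at the line, had rank 70 from the most lowered of the 257. The interval of miR-199a-5p (-2.43 to -2.07) reached the line. The 5 are not separate counts, and the counted share behind the line is uncertain.

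The miRNAs whose change was most like that of miR-199a-3p, by the distance of log2 ratios among 138 other miRNAs with at least 100 reads in both libraries, were let-7d (-2.95), let-7a (-2.95), miR-98 (-2.90), miR-432 (-2.88) and miR-296 (-2.86). With only 2 libraries this likeness is 1 number per miRNA. The peak lactation count of let-7a differs from that of the study's list, so its place here is uncertain.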

How the data were processed

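Small RNA of mammary gland tissue was sequenced in 2 libraries, 1 per stage. The submitters' processing notes name CASAVA, with no version. The authors filtered out low-quality, adaptor-contaminated, insert-free and poly(A) reads and those shorter than 18 nt, and then merged identical reads into tags. They deposited the clean read count of each distinct tag, with no normalization or alignment.

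A tag was counted for the listed miRNA whose sequence it matched over the longest run of bases starting at its first base (minimum 18 nt), whatever its 3′ end. Ties were counted for each miRNA. The members, the lists and the rule for named miRNAs (all members, all listed markers, and the 5 miRNAs nearest to miR-199a-3p) were chosen with earlier results of these data known. Counts were divided by clean reads (RPM), a miRNA had to reach 1 RPM in 1 library to be tested, and a count of 0 was set to 0.01 RPM. Intervals of log2 ratios were derived from Wilson 95% intervals on how reads divide between the libraries, and ratios were compared with Fisher's exact test. As alternatives, edgeR 4.0.16 and DESeq2 1.42.0 gave scaling factors in R 4.3.3, with no test. The rest was done in Python 3.11.15 (matplotlib 3.10.9, numpy 2.4.6, scipy 1.17.1). The counting was tested on simulated data. Reads that start 1 nt earlier or later, and totals of conserved miRNA reads without let-7 or with 1 mismatch, were added as alternatives after seeing the data.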

Additional observations from a re-analysis of the deposited data

How the results depend on the processing

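Of 96 recomputed values, 74 were labelled the same. For a ratio or share this meant the same direction and side of the threshold. For the number of members called lower it meant a similar number, such as 4 against 5 with TMM or DESeq2 size factors. Per conserved miRNA reads, 0 members were called lower, with log2 ratios of -0.87 for miR-199a-3p, -0.17 for miR-199a-5p, -0.42 for miR-199b, -0.50 for miR-199c and -0.37 for miR-214. By construction, this scale removes the -2.08 difference in the counted share of miRNA reads, which is uncertain. With more let-7 reads at peak lactation, as in the study's list, it would remove less. With 1 mismatch allowed in that total, added after seeing the data, the same values were -0.88, -0.18, -0.43, -0.51 and -0.38, with 0 called, while without let-7 all 5 stayed called. miR-199a-5p lost its call with edgeR TMM (-0.95) and DESeq2 size factors (-0.85). With a stretch of 20 nt, 3 members were called lower, since miR-199b and miR-199c are too short to be counted. With identical tags the changes of miR-199b to miR-199a-5p (-0.40) and miR-214 to miR-199a-5p (-1.01) passed the threshold, and miR-214 to miR-199a-3p turned to -0.20. The first also passed with 1 mismatch (-0.28) and with tags of at least 5 reads (-0.28), where the second was -0.55 and the third, at 0.15, lost its call. The cause of these shifts was not tested. The arm ratio of miR-199a ran from -0.81 to -0.68 and stayed past the threshold throughout. Not run were the 20 nt stretch for miR-199b and miR-199c, and any start inside the hairpin for the ratios of miR-199b and miR-214. No paired analysis was possible because each stage had 1 library, and for the same reason no replicate could be left out. At peak lactation miR-214 rested on 109 reads, and on 15 with identical tags.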

Other observations

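The 21 nt form of miR-199a-3p was also read with single changed bases. Between positions 2 and 18, counted from the 5′ end, tags with 1 mismatch held 1855 reads in the dry period library, 2.88% of the 64421 identical reads, and 278 reads at peak lactation, 3.01% of 9225. The most frequent was A6C, inside the seed, with 545 reads (0.846% of the identical reads) and 72 reads (0.780%). In the dry period library A3G followed with 152 reads and G11A with 98. At peak lactation A3G had 18 reads, A13C 16 and G11A 14. The 5 most frequent changes in the dry period library included A13C and U5G. The source of these changes was not tested.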
